A study of Mus musculus with 48 samples.

Results

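The 40 genes described here encode the machinery of G2 and mitosis, from CDK1 and its cyclins to the kinetochore, the spindle and the cytokinesis apparatus. They were taken as a list of names, and all 40 were found among the 55291 gene symbols of every count table. Nascent RNA had been labelled with EU, a uridine analogue that living cells build into new transcripts, and captured from mouse embryonic stem cells of the 129S5/SvEvBrd strain. The study asked how loss of SMARCE1 during mitosis bears on the restart of transcription as cells leave mitosis. SMARCE1 belongs to the BAF chromatin remodellers, the mammalian SWI/SNF family. The Smarce1-MD cells (here MD, clones MD09 and MD30) carry SMARCE1 fused to a domain that has it destroyed in mitosis. The Smarce1-MD(R42A) cells (here R42A, clones A04 and A10) carry the same fusion with the R42A change and served as the comparison. Each genotype was sampled as asynchronous cells, in mitotic arrest (0 min), and 45, 90, 180 and then 240 min after nocodazole, a microtubule poison that arrests cells in mitosis, had been washed out. Both genotypes had received the drug at 100 ng/ml for 6 h, and rounded cells were shaken off and washed 3 times. Each clone and condition gave 2 libraries, 48 in all, and the clone was taken as the replicate, so that each group held 2 replicates. Separate cultures for the 2 libraries are not stated in the sources used here, and each genotype rests on 2 clones.

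As background, entry into mitosis is driven by CDK1 bound to cyclin B, which the CDC25 phosphatases switch on and the anaphase-promoting complex switches off by destroying the cyclin. Many of the genes for this machinery are transcribed most in G2, under the MuvB complex with B-MYB and FOXM1, which reads a promoter element called the CHR, and under NF-Y, which binds CCAAT boxes. As cells enter mitosis most transcription stops, and it restarts in telophase and early G1, when the products of these genes are no longer needed. Embryonic stem cells have a short G1 and spend much of their cycle in S phase.

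The strand of the counts decides what the values below mean. In the GENCODE M21 annotation of mm10, 2106 short RNA features of at most 400 bases lie in an intron of 1 protein-coding gene, where nascent RNA of that gene runs across them. Of the 786 on the strand opposite to that gene, 625 (79.5%) held counts, 154949 in all, whereas of the 1320 on the same strand 19 (1.44%) held counts, 170 in all. The tables thus credited reads to features on the strand opposite to the transcript. The setting used by the counter is not given in the sources used here. A count credited to a member is therefore read as coming mostly from the strand facing it, such as antisense RNA or the transcript of a convergent neighbour, and the values below are called counts credited to the gene. Of the 40 members, 22 overlapped another annotated gene, 17 of them one on the opposite strand.

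Levels are given in CPM, the count scaled to the library's total. Per kilobase of exon, the 3 highest in asynchronous R42A cells were Ccna2 at 43.7 CPM per kilobase, Kif20a at 43.4 and Prc1 at 34.7, and each of these genes overlaps a protein-coding neighbour on the other strand. Of the exon bases of Ccna2, the cyclin A2 gene, 21.1% lie within the span of Exosc9, an exosome subunit gene, and 510 bases are exon in both. Of those of Kif20a, a central spindle kinesin gene, 32.3% lie within Cdc23, with 1271 bases shared, and all those of Prc1, the microtubule bundler of the central spindle, lie within Rccd1. Members with no such neighbour or a smaller overlap stood lower, and whether a neighbour sets the level was not tested. Ccnb2, the fourth highest at 21.4 CPM per kilobase, overlaps no annotated gene. The lowest, Cdc25b at 0.271 CPM per kilobase, faces Spef1, with 92 exon bases shared. Bub3, at 0.651, lies wholly within the span of Fgfr2 on the other strand, but 0 exon bases are shared. Cyclin B1 mRNA has near-identical copies in Ccnb1-ps (99.2% over 1287 bases), Gm12856 and Gm8416, so that reads of Ccnb1 may have been split or lost.

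Libraries held 630119 to 3885219 counts assigned to features, with 762327 to 1022255 at 0 min, while 90.2 to 94.0% of each table's total fell in no feature. Counts for the members were low. Of the 40 genes, 28 had fewer than 10 counts in at least 1 library, 4 had 0 in at least 1, and 12 had 10 or more in all 48; the highest count was 3548. Of 10 markers of embryonic stem cells, 9 were detected, with a summed level of 410 to 1473 CPM, and Sox2 stood at 0 in all libraries (these are credited counts too). Esrrb alone stood at 270 to 1193 CPM. The sum of 7 fibroblast markers was 2.04 to 43.2 CPM, that of 5 primitive endoderm markers 4.07 to 46.7 CPM and that of 5 neural markers 6.59 to 90.4 CPM. Of the neural markers, Pax6 and Neurod1 had medians of 12.8 and 16.2 CPM, where Nanog had 17.6 CPM, and Tubb3 and Sox1 stood at 0 throughout. The 4 MD libraries at 90 min stood apart from the rest. They held 630119 to 1518400 counts, mitochondrial features took 0.529 to 4.31% of them against 0.138 to 0.657% elsewhere, and the stem cell markers summed to 410 to 623 CPM. Of CT010467.2, a single feature, clone MD09 had 61437 and 148248 counts at that time but clone MD30 only 598 and 661, against 610 to 716 in all other libraries. Values that rest on these libraries are given as such below. Their part in the results was not tested other than by leaving out these libraries, or CT010467.2 with the mitochondrial features.

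The promoters of the list carry the elements that the background above names, and they are shown before the values because the counts face the other strand. RefSeq promoters on GRCm38.p6, running from 250 bases before to 50 bases after the start, were found for 34 of the 40 members, 37 promoters in all (not in the table were Ccna2, Cdc25c, Aurkb, Incenp, Tpx2 and Kif20a). The CHR was searched as TTTGAA on both strands. It was in 28 of 37 member promoters (75.7%) and in 5878 of 32851 promoters of the whole table (17.9%). Counting only matches wholly upstream of the start, the shares were 35.1% and 16%. The variant TTTAAA was in 24.3% of member promoters and 13.2% of all. CCAAT was in 78.4% and 37.4%. By gene, 25 members held a CHR, 26 a CCAAT box and 21 both in 1 promoter, and 3 members, Mad2l1, Nuf2 and Nusap1, held none of the 3 motifs. In 8 members a CHR lay wholly within the 100 bases upstream, namely Cdk1, Bub3, Kif11, Prc1, Cdc20, Ube2c, Top2a and Mki67. A match to these letters is a description and does not show that a factor binds. The 120 bases upstream of 4 of these genes follow, 5′ to 3′ on the gene's strand (minus in all 4), ending at the base before the start, with CHR and CCAAT matches on either strand in capitals. They lie at chr7:135716380-135716499 for Mki67, chr11:99024190-99024309 for Top2a, chr4:118437344-118437463 for Cdc20 and chr10:69352913-69353032 for Cdk1.
Mki67: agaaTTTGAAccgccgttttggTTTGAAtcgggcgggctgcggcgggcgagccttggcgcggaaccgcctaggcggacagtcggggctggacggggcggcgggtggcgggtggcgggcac
Top2a: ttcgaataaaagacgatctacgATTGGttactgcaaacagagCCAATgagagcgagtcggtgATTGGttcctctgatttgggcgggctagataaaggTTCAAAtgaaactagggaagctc
Cdc20: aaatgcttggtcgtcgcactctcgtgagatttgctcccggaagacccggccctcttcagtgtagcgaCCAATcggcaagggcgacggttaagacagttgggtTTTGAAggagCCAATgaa
Cdk1: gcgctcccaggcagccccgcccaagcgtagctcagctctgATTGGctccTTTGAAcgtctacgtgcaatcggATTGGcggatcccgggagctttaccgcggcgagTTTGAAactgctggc

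**Figure D1:**
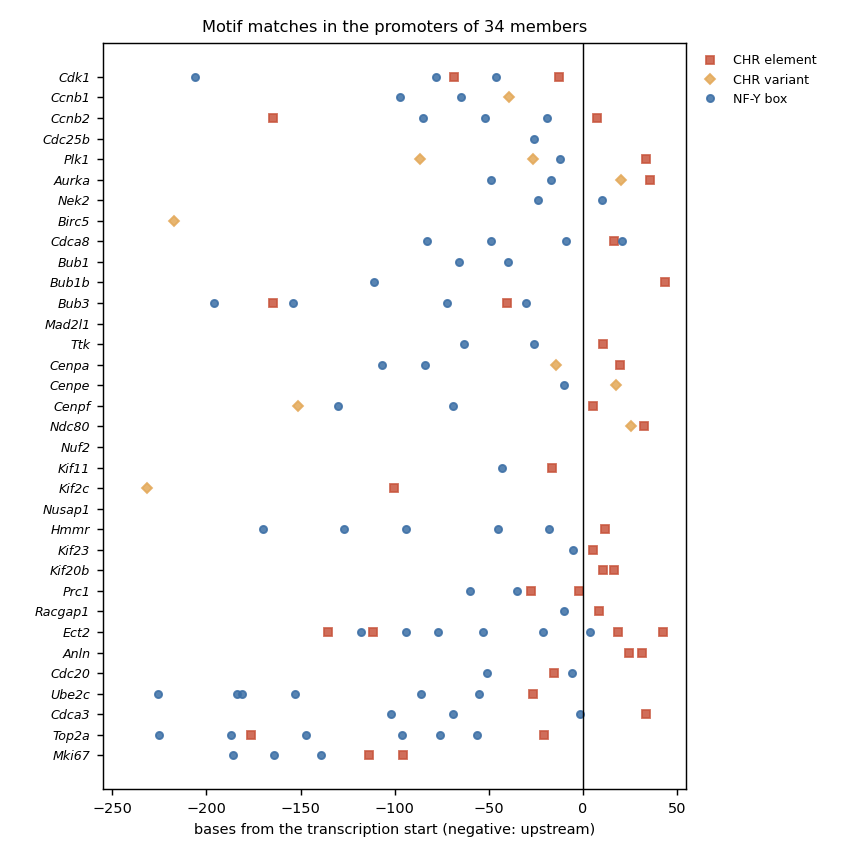
Positions of CHR, CHR variant and CCAAT matches in the promoters of the 34 members with a RefSeq promoter, as distance in bases from the annotated start. CCAAT matches lie upstream of the start in 78.4% of member promoters, and CHR matches lie on both sides of it.

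By CPM, most members in R42A cells had their highest credited level in mitotic arrest, though not by the scaling used for the tests. In bulk RNA, fewer cells that make a transcript and less of it per cell cannot be told apart. Of 40 members, 26 had their highest mean CPM at 0 min, 6 at 45 min, 2 in asynchronous cells and the other 6 at 180 or 240 min. The lowest mean was at 90 min for 12 members and at 180 min for 13. In MD cells 18 members were highest at 0 min and 18 lowest at 90 min, the latter on the libraries that stand apart. With CPM divided by the TMM factor, edgeR's correction for composition, 18 members were highest at 0 min in R42A and 15 in MD, and 10 and 12 in asynchronous cells. The summed level of the list was 1612 to 1717 CPM in the 4 R42A libraries at 0 min and 1449 to 1515 CPM in the 4 MD libraries, against 1137 to 1260 and 1176 to 1319 CPM in asynchronous cells. Ccna2 alone went from 167 and 188 CPM in the sums of clones A04 and A10 to 426 and 438 CPM, and without it the R42A list went from 1016 and 1035 to 1204 and 1242 CPM. The TMM factors were 0.814 to 0.836 for asynchronous R42A and 1.067 to 1.105 at 0 min, and 0.883 to 0.916 and then 1.133 to 1.152 for MD. On that scale the list went from 1452 and 1464 to 1527 and 1521 in R42A and from 1416 and 1372 down to 1311 and 1293 in MD, and without Ccna2 it was lower at 0 min in both genotypes (1248 and 1238 against 1128 and 1124 in R42A). Fold changes below follow the TMM scaling, so a log2 fold change from asynchronous to 0 min is smaller than the CPM ratio. They are given with their standard error (SE), and a gene was called when its Benjamini-Hochberg adjusted p, over all 23874 features tested, was under 0.05. All 40 members passed the filter on low counts. Consecutive steps share the libraries of the time between them.

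**Figure D2:**
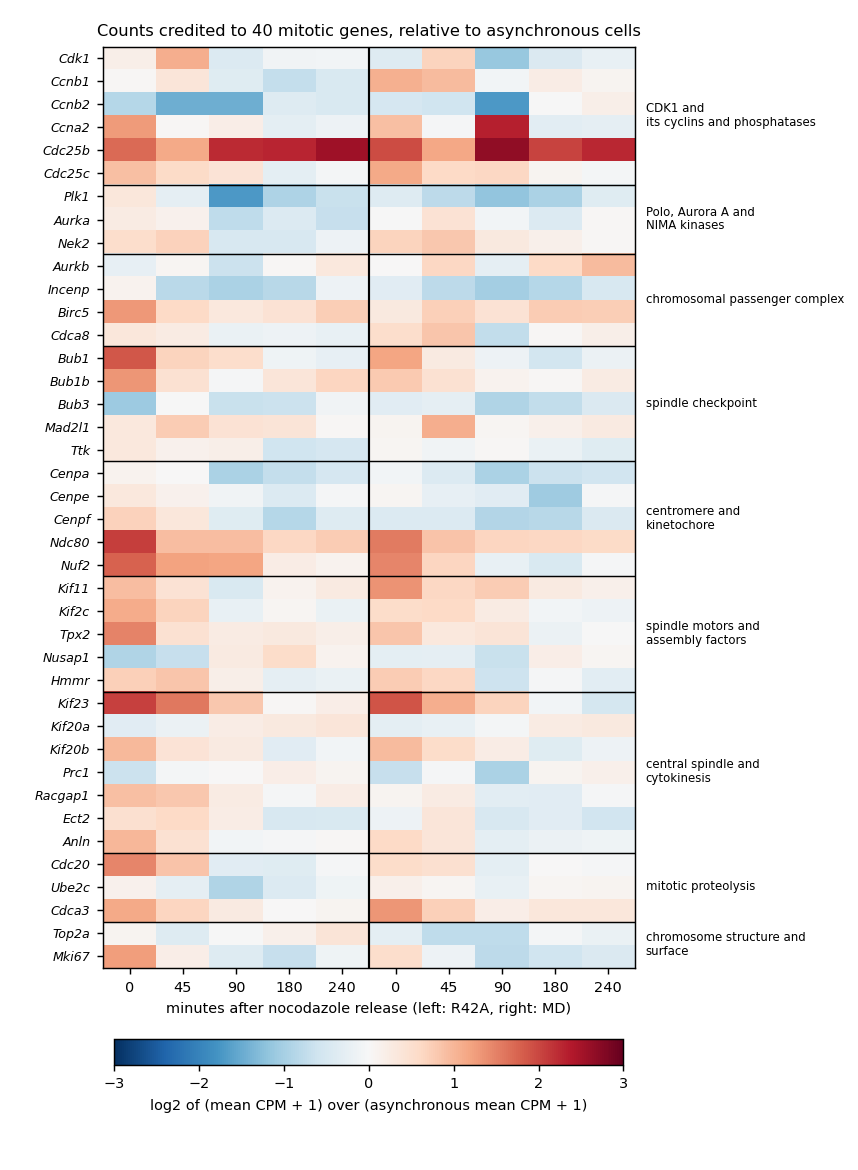
Log2 ratio of the mean credited CPM, with 1 added to each mean, for the 40 members (rows, by role) in 10 columns. Each column sets mitotic arrest or a time after release against asynchronous cells of the same genotype, R42A or MD. The ratios are on the CPM scale, not the TMM scaling of edgeR's fit, and calls are not marked. For 0 min against asynchronous cells, edgeR's quasi-likelihood test called 14 members higher and 5 lower in R42A, and 10 and 7 in MD.

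Between asynchronous cells and mitotic arrest, 14 of 40 members rose in R42A and 5 fell. All levels and fold changes here are relative to the other counts of a library, so a rise is one in share. Whether transcription per cell rose or fell was not tested. Among all features tested, 19.1% rose and 27.2% fell, against 35.0% and 12.5% of the members, and the median log2 fold change was 0.26 for the members and -0.07 for all features. Of the 19 called members, 18 had no overlap between their 4 libraries at 0 min and the 4 asynchronous ones. The same count was not made over all called features, so whether 18 of 19 is unusual is not known. Rises were called for 2 of 5 centromere and kinetochore genes, 3 of 7 central spindle and cytokinesis genes and 2 of 3 genes of mitotic proteolysis. Ndc80, which holds microtubules at the kinetochore, rose from 8.04 ± 1.2 to 37.1 ± 1.02 CPM (SD, n = 2 clones), a log2 fold change of 1.81 (SE 0.23, adjusted p = 8.86e-09, edgeR quasi-likelihood test). Its partner Nuf2 rose by 1.63 (SE 0.38) and the checkpoint kinases Bub1 and Bub1b by 1.63 (SE 0.31) and 0.96 (SE 0.22).

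Kif23, the kinesin of the centralspindlin complex, was among the members picked for listing by library. Its credited level was 6.52, 8.95, 5.93 and 3.64 CPM in the asynchronous R42A libraries (A04 replicates 1 and 2, then A10 replicates 1 and 2, the order used throughout) and 27.5, 27.9, 19.4 and 41.3 CPM at 0 min. The lowest arrested library was thus above the highest asynchronous one, with a log2 fold change of 1.80 (SE 0.26, edgeR adjusted p = 1.57e-07). In MD the level went from 10.5, 9.32, 9.24 and 8.37 CPM (MD09 replicates 1 and 2, then MD30) to 28.2, 44.0, 37.3 and 39.2 CPM, again without overlap (log2 fold change 1.66, SE 0.23, edgeR adjusted p = 1.19e-07).

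Mki67 encodes Ki-67, the protein that coats mitotic chromosomes. Its credited level was 29.3, 46.2, 35.6 and 34.8 CPM in asynchronous R42A libraries and 91.8, 92.6, 80.0 and 86.4 CPM at 0 min (log2 fold change 0.88, SE 0.17, edgeR adjusted p = 3.56e-05). In MD it was 34.6, 40.9, 38.6 and 28.1 CPM and then 63.7, 51.8, 48.7 and 42.9 CPM. The MD groups did not overlap either, but the log2 fold change of 0.20 missed the threshold (edgeR adjusted p = 0.397). Cdc20, the activator of the anaphase-promoting complex, followed the same pattern. It went from 15.9, 20.4, 20.1 and 15.6 CPM to 49.8, 50.2, 46.0 and 60.6 CPM in R42A (log2 fold change 1.12, SE 0.20, edgeR adjusted p = 1.22e-05). In MD it went from 22, 23.8, 19.0 and 16.7 CPM to 26.9, 26.4, 38.3 and 30.6 CPM (log2 fold change 0.24, edgeR adjusted p = 0.382).

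Other members that rose in R42A were Tpx2, the activator of Aurora A (log2 fold change 1.16, SE 0.19, edgeR adjusted p = 1.87e-06), Cdc25b (1.98, SE 0.56), Birc5, which encodes survivin (1.00), the depolymerising kinesin gene Kif2c (0.79), Cdca3 (0.77), Kif20b (0.65) and the contractile ring scaffold gene Anln (0.64). The 5 that fell were the spindle bundling factor Nusap1, by 1.33 on the log2 scale (SE 0.20, edgeR adjusted p = 2.84e-07), Prc1, by 1.03 (SE 0.15, edgeR adjusted p = 4.26e-07), Ccnb2, by 1.28 (SE 0.25, edgeR adjusted p = 3.61e-05), Kif20a, by 0.73 (SE 0.16), and Bub3, by 1.97 (SE 0.56). Prc1 and Kif20a are among the 3 members with the highest level per kilobase. The other, Ccna2, stood at 153, 183, 185 and 193 CPM in asynchronous R42A libraries and at 433, 420, 431 and 446 CPM at 0 min without overlap, but its log2 fold change of 0.89 was not called (edgeR adjusted p = 0.163). All 24 clone sums share its estimate of spread, and its level in the MD libraries at 90 min was 2337, 852, 643 and 360 CPM. Without those libraries Ccna2 was called higher at 0 min in R42A, by 1.09 (SE 0.12, edgeR adjusted p = 1.05e-09), and in MD, by 0.72 (SE 0.12). Over its alternatives the adjusted p in R42A ran up to 0.522.

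The Polo, Aurora A and NIMA kinase genes, 3 members, did not pass the test at this step. Plk1, the Polo kinase, stood at 9.78, 12.4, 11.4 and 7.79 CPM in asynchronous R42A libraries and at 6.56, 14.5, 15.8 and 16.8 CPM at 0 min, with overlap (log2 fold change -0.01). Aurka, the Aurora A kinase, stood at 16.7, 11.4, 18.3 and 12.5 CPM and then at 21, 12.3, 19.4 and 18.1 CPM, also with overlap (log2 fold change -0.17). Cyclin B1 was hardly measured. The counts credited to Ccnb1 were between 0 and 23 in the 48 libraries and its level between 0 and 9.0 CPM. Ccnb1 was not called in any of the 22 comparisons, nor was Racgap1, the GTPase-activating partner of Kif23.

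In MD, 10 of 40 members rose at 0 min and 7 fell, 25% and 17.5% against 18% and 24.6% of all features, and the median of the members was 0.12 against -0.09. Ndc80 rose by 1.34 (SE 0.25, edgeR adjusted p = 1.92e-05), Cdc25b by 1.99 (SE 0.40, edgeR adjusted p = 6.33e-05) and Kif11, the motor that pushes the spindle poles apart, by 1.10 (SE 0.25, edgeR adjusted p = 0.000309). Prc1 fell by 1.06 (SE 0.16, edgeR adjusted p = 3.56e-07) and Incenp, the scaffold of the chromosomal passenger complex, by 0.66 (SE 0.17, edgeR adjusted p = 0.00139). Both genotypes called 8 of the same members higher (Cdc25b, Bub1, Ndc80, Nuf2, Tpx2, Kif23, Kif20b and Cdca3) and 4 lower (Ccnb2, Nusap1, Kif20a and Prc1), and called none in opposite directions. The R42A count was 12 without clone A10, and the MD count fell from 17 to 7 without clone MD30.

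**Figure D3:**
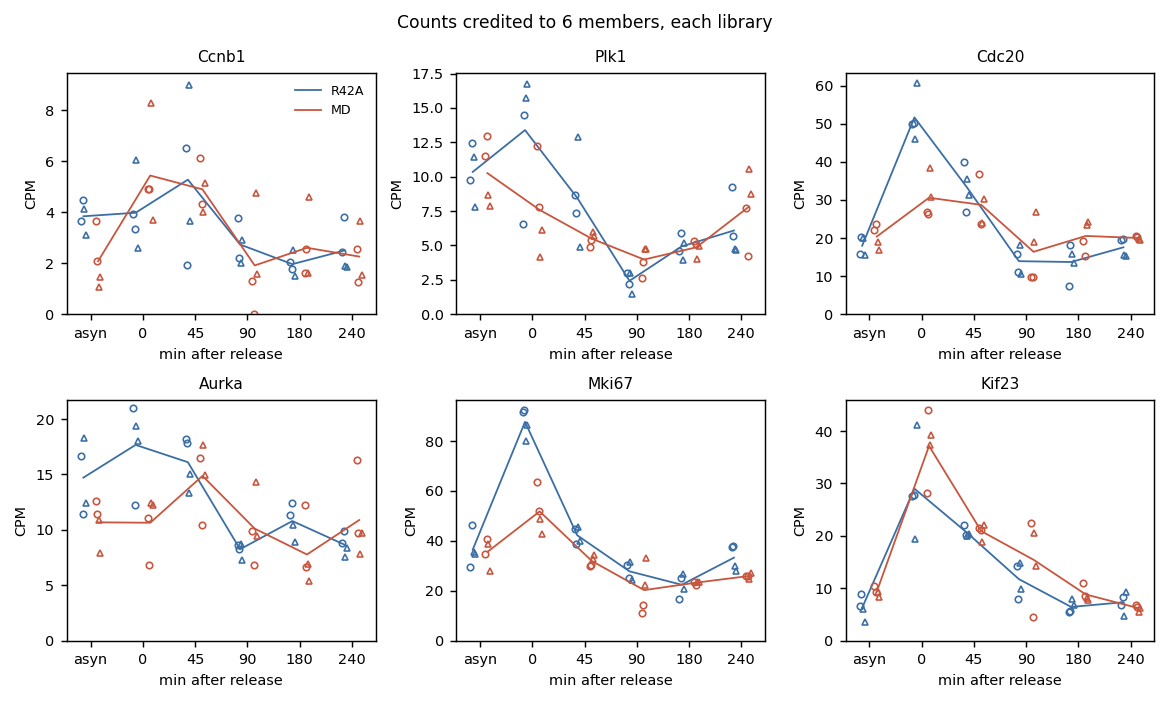
Credited level in CPM of Ccnb1, Plk1, Cdc20, Aurka, Mki67 and Kif23 in each of the 48 libraries, by condition, with R42A and MD drawn separately and the mean of each group. Mki67 in R42A is at 80.0 to 92.6 CPM at 0 min and at most at 46.2 CPM in the other conditions, and Ccnb1 lies between 0 and 9.0 CPM.

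In the first 45 min after release, 3 members rose and 9 fell in R42A, 7.5% and 22.5% against 25% and 21.6% of all features, with a median log2 fold change of -0.40 against 0.03. Mki67 fell to 44.6, 38.9, 45.4 and 39.9 CPM (log2 fold change -1.01, SE 0.17, edgeR adjusted p = 3.26e-06) and in MD to 30.0, 30.2, 32.9 and 34.5 CPM (-0.68, SE 0.18, edgeR adjusted p = 0.00228), without overlap with 0 min in either genotype. Tpx2 fell by 1.01 (SE 0.18), Ndc80 by 1.14 (SE 0.20), Incenp by 0.90 (SE 0.17), Bub1 by 1.25 (SE 0.28) and Bub1b by 0.82 (SE 0.21). Cdc20 fell to 39.9, 26.8, 35.6 and 31.3 CPM (log2 fold change -0.58, SE 0.19, edgeR adjusted p = 0.0103). The 3 that rose were Cdk1, by 1.03 (SE 0.30, edgeR adjusted p = 0.00396), Prc1, by 0.63 (SE 0.15), and Bub3, by 1.60 (SE 0.57). At 45 min Prc1 stood at 275 ± 1.29 CPM and Bub3 at 4.54 ± 0.358 CPM (SD, n = 2 clones).

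In MD over the same step 3 members rose and 11 fell, against 23.1% and 17.1% of all features (median -0.21 against 0.10). Kif23 fell in MD by 0.84 (SE 0.20, edgeR adjusted p = 0.000853), from 28.2, 44.0, 37.3 and 39.2 to 21.4, 21.2, 18.8 and 22.1 CPM, without overlap. In R42A it stood at 22.1, 20.2, 19.95 and 20.3 CPM at 45 min, overlapped with 0 min and was not called. Both genotypes called Cdk1 and Prc1 higher and Incenp, Bub1, Ndc80, Tpx2 and Mki67 lower. Without clone A10 the R42A count of 12 became 5, and the MD count of 14 became 5 without MD09 and 9 without MD30.

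Between 45 and 90 min, 4 members rose and 11 fell in R42A, 10.0% and 27.5% against 20.5% and 20.2% of all features (median -0.26 against 0.00). All 3 Polo, Aurora A and NIMA kinase genes fell at this step, while none of the 5 spindle checkpoint or the 4 passenger complex genes was called. Plk1 went from 8.67, 7.39, 12.9 and 4.88 CPM to 3.02, 2.22, 3.03 and 1.46 CPM without overlap (log2 fold change -1.62, SE 0.33, edgeR adjusted p = 7.55e-05). Aurka went from 18.2, 17.9, 13.3 and 15.1 CPM to 8.67, 8.25, 8.74 and 7.31 CPM, also without overlap (-0.78, SE 0.23, edgeR adjusted p = 0.00491). Nek2, a kinase of centrosome separation, fell by 1.07 (SE 0.20), and Cdk1, which had risen at 45 min, by 1.47 (SE 0.24). Cdc20 fell to 15.8, 11.1, 18.2 and 10.6 CPM (log2 fold change -1.08, SE 0.19, edgeR adjusted p = 7.09e-06), which overlaps the asynchronous libraries. Nusap1 rose by 1.15 (SE 0.16, edgeR adjusted p = 1.51e-07), Cdc25b by 1.47 (SE 0.30), Kif20a by 0.58 (SE 0.15) and Top2a, the topoisomerase that untangles chromosomes, by 0.57 (SE 0.17). Without clone A10 the count of 15 became 9.

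The MD step from 45 to 90 min rests on the libraries that stand apart and is given as values. Members called higher numbered 3 and lower 7, against 20.1% and 25.2% of all features, and 5 were called without clone MD09. Cdk1 fell and Cdc25b and Kif20a rose in both genotypes. Across the longer step from 45 to 180 min, which leaves the 90 min libraries out of the contrast, 5 members rose and 13 fell in MD, against 24% and 23.6% of all features (median -0.34 against -0.03). Among them Kif23 fell by 1.12 (SE 0.21, edgeR adjusted p = 2.48e-05), Cdk1 by 1.07 (SE 0.26), Cdca8, a passenger complex subunit, by 0.74 (SE 0.18) and Aurka by 0.81 (SE 0.24), while Top2a rose by 0.82 (SE 0.16). That count of 18 became 11 without MD09 and 8 without MD30.

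From 90 to 180 min, 2 members rose and 9 fell in R42A, 5.0% and 22.5% against 20.7% and 17.3% of all features (median -0.06 against -0.01). Ccnb2, the second mitotic B-type cyclin, rose by 1.05 (SE 0.21, edgeR adjusted p = 9.70e-05) and Plk1 by 0.93 (SE 0.35). Kif23 fell by 0.96 (SE 0.23), Nuf2 by 1.25 (SE 0.29) and the checkpoint kinase Ttk by 1.01 (SE 0.30). The R42A count of 11 became 5 without A04 and 4 without A10. In MD the same step, which rests on the 90 min libraries that stand apart, called 5 higher and 8 lower, against 26.7% and 18.6% of all features, with 6 without MD09 and 7 without MD30. From 180 to 240 min little changed. In R42A Incenp rose by 0.63 (SE 0.16) and Nusap1 fell by 0.53 (SE 0.16), where 0.926% of all features rose and 4.03% fell, and in MD Cenpe, a kinetochore motor, was the 1 member called, higher by 1.08 (SE 0.23), where 0.343% of all features were called.

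At 240 min few members were called above their asynchronous level, by the TMM scaling of the tests. In R42A 1 member was higher and 10 lower, 2.5% and 25% against 19.3% and 26.1% of all features, so that the share lower was near that of all features, with a median of -0.36 against -0.12. The summed level was 1241 to 1281 CPM, against 1137 to 1260 CPM in asynchronous libraries. With CPM divided by the TMM factor it was 1181 and 1272 in the sums of clones A04 and A10, against 1452 and 1464. The direction of the sum thus depended on the scaling. Aurka stood at 8.78, 9.91, 7.54 and 8.39 CPM, below all 4 asynchronous libraries (log2 fold change -1.10, SE 0.24, edgeR adjusted p = 0.000205). Plk1 stood at 9.27, 5.72, 4.71 and 4.66 CPM, and its highest library was within the asynchronous range (-1.11, SE 0.29, edgeR adjusted p = 0.0013). Ect2, which switches on RhoA at the cleavage furrow, fell by 0.84 (SE 0.25), the kinetochore protein gene Cenpf by 0.75 (SE 0.25) and Mki67 by 0.44 (SE 0.17). The member that was higher was Cdc25b, at 12.2, 12.2, 7.07 and 11.2 CPM against 1.22, 0.994, 1.83 and 0 CPM in asynchronous cells (log2 fold change 2.99, SE 0.41, edgeR adjusted p = 4.21e-08).

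MD at 240 min had 2 members higher and 7 lower, against 20% and 23.5% of all features, with a median of -0.26 against -0.09. Cdc25b was higher by 2.44 (SE 0.33, edgeR adjusted p = 5.22e-08) and Aurkb, the Aurora kinase of the passenger complex, by 0.86 (SE 0.33). Incenp, Cenpf, Ect2 and Mki67 were called lower in both genotypes. The R42A count of 11 became 3 without clone A04 and 7 without 1 replicate of A04, MD09 or MD30 (replicate 2 in each case), and the MD count of 9 became 3 without MD09 and 5 without MD30.

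Reads on the members' own strand were counted where another feature faces the gene from inside it, since that feature received them. Such features, called own-strand features here, were chosen after the strand of the counts had been seen. They lie in 6 members: Gm44985 in Plk1 (chr7:122167029-122168044, mm10, as are the others), Gm45240 in Mki67 (chr7:135709194-135709867), Gm37239 in Cenpf (chr1:189685328-189685468), Gm25152 in Ect2 (chr3:27108982-27109095), Gm26394 in Top2a (chr11:98999508-98999622) and Gm3550 in Cdc25c. Each held more counts per kilobase of exon than its host gene. They cover short stretches, so their counts were low, 1 to 21 per library at 0 min for 5 of them and 40 to 68 for Gm44985. Gm37239 is annotated as a processed pseudogene, whose reads may belong to a copy elsewhere.

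All 6 own-strand features were called lower in mitotic arrest than in asynchronous R42A cells, and 5 were in MD. DESeq2 called 3 and 2 of them. The call held in all 19 alternatives for 2 features in R42A, Gm3550 and Gm45240, and for 1 in MD, Gm3550. By CPM the asynchronous and arrested R42A libraries overlapped for Gm44985, Gm25152 and Gm26394. For Gm26394 they were at 12.6, 14.9, 16.9 and 18.7 CPM and then 10.5, 19.0, 12.1 and 10.3 CPM. Of the 2823 tested features that face a gene from inside it, 46.5% fell in R42A and 9.46% rose, with a median log2 fold change of -0.83, and in MD 43.9% fell, so a fall was common to such features. Inside Mki67, Gm45240 went from 16.7, 19.9, 15.1 and 27.0 CPM to 11.8, 11.2, 8.48 and 11.6 CPM without overlap (log2 fold change -1.24, SE 0.27, edgeR adjusted p = 0.000151). The counts credited to Mki67 itself, from the other strand, moved the opposite way at this step (0.88). Gm3550 in Cdc25c went from 33.0, 30.3, 27.8 and 26.5 CPM to 9.18, 10.0, 12.1 and 10.3 CPM (-1.89, SE 0.27, edgeR adjusted p = 1.40e-07). Gm44985 in Plk1 fell by 0.58 on the log2 scale (edgeR adjusted p = 0.0072).

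After release 3 of the 6 rose within 45 min in both genotypes, against 25.3% of such features rising in R42A, where 29.9% fell, and 17.8% rising in MD. Gm45240 reached 25.6, 26.1, 33.6 and 41.5 CPM in R42A at 45 min, above all 4 arrested libraries (log2 fold change 1.60), and rose by 1.16 in MD. Gm37239 went from 3.94, 3.35, 1.21 and 2.58 CPM at 0 min, which is 1 to 3 counts, to 9.10, 11.3, 14.1 and 14.2 CPM (2.18; 1.40 in MD). Gm3550 rose by 1.49 and 0.75. In the Plk1 feature Gm44985 the level fell further, by 0.43 (edgeR adjusted p = 0.0496). From 45 to 90 min Gm37239, Gm44985 and Gm45240 fell in R42A, by 1.3, 0.72 and 0.86, a direction that 9.07% of such features took while 44.6% rose.

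At 240 min all 6 were lower than in asynchronous cells in both genotypes, against 43.5% of such features in R42A and 39.1% in MD. Gm44985 stood at 78.2, 82.5, 72.1 and 84.7 CPM in asynchronous R42A libraries and at 29.3, 30.9, 43.8 and 33.1 CPM at 240 min, without overlap, a fall of 1.53 (1.54 in MD). The others fell by 0.59 to 1.56 in R42A and by 0.88 to 2.0 in MD, and DESeq2 called 5 of the 6 in each genotype.

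**Figure D4:**
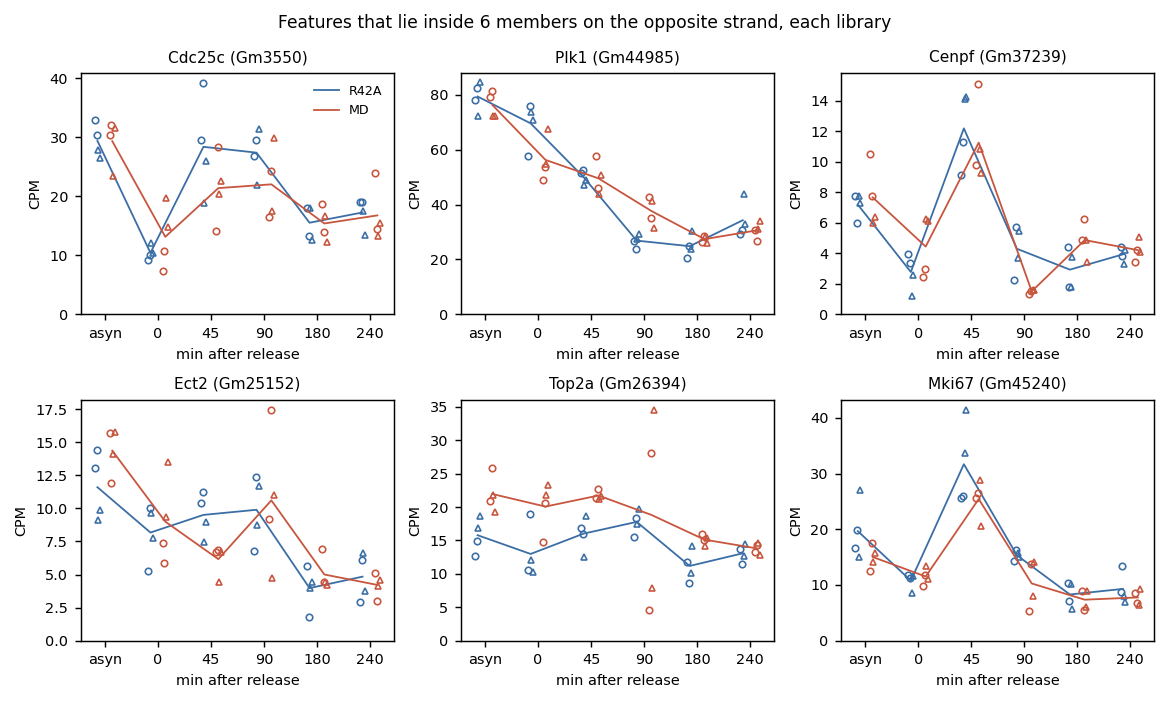
Level in CPM of the 6 features that lie inside a member on the opposite strand, in each library by condition and genotype, with group means. In the Plk1 feature Gm44985 the R42A libraries lie at 72.1 to 84.7 CPM in asynchronous cells and at 29.3 to 43.8 CPM at 240 min.

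MD and R42A differed in few members. Across the 6 genotype comparisons 24 calls fell on 15 members, and 25 members were called in none. The share of members called was below that of all features in each comparison, at 7.5% against 13.1% in asynchronous cells, 5.0% against 6.66% at 0 min, 7.5% against 17.6% at 45 min, 27.5% against 37.7% at 90 min, 10.0% against 14% at 180 min and 2.5% against 10.6% at 240 min. Ube2c, the ubiquitin-conjugating enzyme of the anaphase-promoting complex, was called higher in MD in 4 comparisons, more than any other member. On the other strand the span of Tnnc2 covers 62.8% of its exon bases.

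Ube2c was higher in MD at 45 min by 0.69 (SE 0.20, edgeR adjusted p = 0.0151), at 90 min by 1.29 (SE 0.24, edgeR adjusted p = 6.29e-05), at 180 min by 0.93 (SE 0.20, edgeR adjusted p = 0.00125) and at 240 min by 0.69 (SE 0.20, edgeR adjusted p = 0.0222). At 180 min its level was 9.27, 15.1, 16.3 and 11.9 CPM in R42A and 22, 28.6, 29.5 and 24.9 CPM in MD, without overlap. In asynchronous cells the groups overlapped, at 13.9, 18.4, 19.6 and 19.7 CPM in R42A and 19.9, 28.5, 19.6 and 32.5 CPM in MD, and the gene was not called. The calls at 90 and 180 min held in all alternatives tried, while the call at 45 min was lost in 7 of 19 (edgeR or DESeq2 adjusted p 0.00736 to 0.307) and that at 240 min in 9 of 19 (0.0102 to 0.181).

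In mitotic arrest 2 members were called, both lower in MD. Mki67 stood at 63.7, 51.8, 48.7 and 42.9 CPM in MD against 91.8, 92.6, 80.0 and 86.4 CPM in R42A (log2 fold change -0.84, SE 0.18, edgeR adjusted p = 0.0025). Cdc20 stood at 26.9, 26.4, 38.3 and 30.6 CPM against 49.8, 50.2, 46.0 and 60.6 CPM (-0.82, SE 0.21, edgeR adjusted p = 0.0151). The libraries of the genotypes did not overlap for either gene. Over the alternatives the adjusted p ran from 0.000386 to 0.127 for Mki67, past the threshold without clone A04 (0.0751) and without MD30 (0.127), and from 0.0107 to 0.211 for Cdc20, highest without MD09. Without A04 no member was called at 0 min. Mki67 was also lower in MD at 45 min (-0.52, SE 0.17, edgeR adjusted p = 0.0285, lost in 7 of 19 alternatives, range 0.00548 to 0.229).

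In asynchronous cells Top2a was higher in MD, at 52.4, 62.1, 54.9 and 57.1 CPM against 29.3, 32.8, 36.5 and 32.7 CPM (log2 fold change 0.67, SE 0.16, edgeR adjusted p = 0.00441; 0.064 without clone A04, 0.000655 at the least). Ccnb2 was lower by 0.90 (SE 0.22, edgeR adjusted p = 0.00398, range 0.000456 to 0.363 and highest without A04) and Nek2 by 0.81 (SE 0.24, edgeR adjusted p = 0.0209, lost in 9 of 19 alternatives, range 0.0118 to 0.362). The count of 3 became 0 without A04 and 1 without MD30. At 180 min Nusap1 was lower in MD, at 64.0, 42.6, 57.0 and 56.0 CPM against 101, 81.5, 98.2 and 74.1 CPM (-0.80, SE 0.16, edgeR adjusted p = 0.00083). Top2a (0.47) and Hmmr, a spindle assembly factor gene (0.68), were higher at 180 min but lost the call in 10 and 14 of 19 alternatives.

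At 90 min 5 members were called higher and 6 lower in MD, where 15.6% and 22.1% of all features were, and the MD libraries are those that stand apart. In these, replicates 1 and 2 differed alike in both clones (correlation of the differences over features 0.764), so the spread between clone sums leaves that difference out and the SE may be too small. With single libraries fitted 10 members were called. Prc1 was at 122, 116, 156 and 149 CPM in MD and 280, 289, 286 and 290 CPM in R42A (log2 fold change -1.03, SE 0.16, edgeR adjusted p = 4.18e-06). Nusap1 was lower by 1.16 (SE 0.19) and Cdc25b higher by 1.27 (SE 0.28). These 3 and Ube2c kept the call in all 18 alternatives. Ccna2 was at 2337, 852, 643 and 360 CPM in MD against 207, 197, 210 and 204 CPM in R42A (log2 fold change 2.64, SE 0.49, edgeR adjusted p = 0.00096) and lost the call without A04 (0.0674) or A10 (0.0685), its highest p in 18 alternatives. The count of 11 became 6 without MD09 and 7 without MD30. The other calls, each lost in at least 2 alternatives, were Kif11 and Kif2c (higher) and Nuf2, Ccnb2, Cdca8 and Mki67 (lower).

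**Figure D5:**
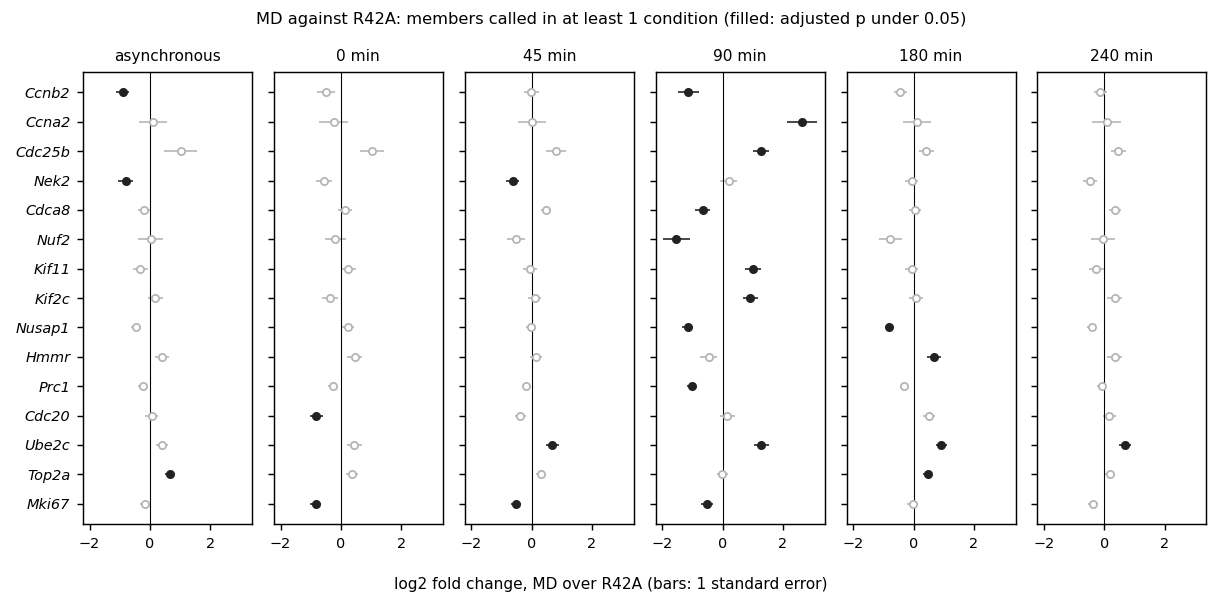
Log2 fold change of MD against R42A in each of the 6 conditions for the 15 members called in at least 1 of them, with standard errors from edgeR's quasi-likelihood fit and called values marked. Ube2c lies above 0 in all conditions where it is called, and the 90 min comparison holds 11 of the 24 calls.

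Whether a change between conditions differed between the genotypes was tested as an interaction. The single steps from 45 min on were not tested in this way. For the change from asynchronous cells to 0 min, from 0 to 45 min and from asynchronous cells to 240 min, edgeR's quasi-likelihood test called 0 of 40 members in each, where it called 1.13%, 0.142% and 1.52% of all features. At an unadjusted p under 0.05 there were 7, 1 and 3 members, and DESeq2 called 0. The rise of Cdc20 at 0 min differed by -0.88 between MD and R42A (adjusted p = 0.141) and that of Mki67 by -0.69 (adjusted p = 0.187), so a difference in rise was not shown although the levels at 0 min differed. An interaction has a larger SE than either step, and differences of moderate or large size could be missed. The own-strand features gave 0 interaction calls too, by edgeR and by DESeq2, with 0 at an unadjusted p under 0.05 in each, where 0.496%, 0.142% and 0.779% of such features were called. Between the genotypes edgeR and DESeq2 called none of them in asynchronous cells or at 0, 45, 180 or 240 min (1, 0, 3, 0 and 0 at an unadjusted p under 0.05), against 9.78%, 6.73%, 15.1%, 11% and 9.03% of such features. At 90 min, where 42.1% were called, edgeR called 2 and DESeq2 1. Gm37239 was lower in MD by 1.42 (edgeR adjusted p = 0.0335, lost in 13 of 18 alternatives) and Gm44985 higher by 0.62 (edgeR adjusted p = 0.0167, and 0.772 without MD09), against 27.6% and 14.5% of such features.

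Smarce1 itself, given as a check of the labels, had group means of 22.3 to 52.4 CPM of credited counts. It was lower in MD at 45 min (log2 fold change -0.88, edgeR adjusted p = 0.00053), 180 min (-0.67, edgeR adjusted p = 0.0102) and 240 min (-0.72, edgeR adjusted p = 0.0096) and was not called in asynchronous cells (-0.55, edgeR adjusted p = 0.051), at 0 min (-0.48) or at 90 min (-0.18). The degradation acts on the protein, so these counts do not check it.

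Other genes of the same pathways were counted alongside. Of 59 further mitotic genes, 13 rose and 14 fell in R42A at 0 min and 20 rose and 7 fell by 45 min, against 14 and 5, then 3 and 9, of the 40 members. The median log2 fold change of these further genes was 0.17 and then 0.36. The falls at 0 min included Ncapg, a condensin subunit gene (log2 fold change -3.27), and Spc24, of the Ndc80 complex (-2.07), and the rises by 45 min Smc4, also condensin (1.66), Plk4, the centriole kinase (1.78), and Pbk (1.66). In Espl1, the separase gene, the own-strand feature Gm49480 fell by 2.12 at 0 min and rose by 2.05 by 45 min. It held 0 to 5 counts per R42A library at 0 min and is 1 of 5 such features in the further mitotic genes. From asynchronous R42A cells to 0 min, Gm12677 in Melk went from a mean of 8.998 to 16.5 CPM. Over the same step Gm31749 in Kif22 went from 294 to 285 CPM. Tmc4-ps in Smc2 went from 13.9 to 11.3 CPM and Gm6334 in Shcbp1 from 9.16 to 4.65 CPM. Of 34 G1/S and replication genes tested, 3 rose and 10 fell at 0 min and 13 rose and 3 fell by 45 min (median -0.09 and then 0.35). Their shares were 8.8% and 29.4%, then 38.2% and 8.8%. Among 22 regulators of the MuvB, B-MYB, FOXM1, E2F and NF-Y families, 8 rose and 4 fell and then 6 rose and 7 fell, with a log2 fold change of 2.02 for E2f8 and -1.2 for E2f5 at 0 min. The shares of the regulators were 36.4% and 18.2%, then 27.3% and 31.8%. At 240 min against asynchronous cells the counts higher and lower in R42A were 11 and 15, 1 and 12, and 3 and 6 in these lists in turn. As shares these were 18.6% and 25.4%, 2.9% and 35.3%, and 13.6% and 27.3%, against 19.3% and 26.1% of all features. Between MD and R42A at 90 min 4 mitotic genes were higher and 21 lower, and 0 and 17 G1/S genes, on the libraries that stand apart. As shares these were 6.8% and 35.6%, and 0.0% and 50.0%, against 15.6% and 22.1% of all features. In the other 5 conditions at most 5 genes of any of these lists were called in 1 direction. The shares called in either direction were 3.4 to 13.6% of the further mitotic genes and 5.9 to 14.7% of the G1/S genes. For the regulators they were 9.1 to 18.2%, and for all features 6.66 to 17.6%. At 0 min 18.2% of the regulators were called, all lower in MD, against 6.66% of all features in either direction. At 45 min the share was again 18.2%, all lower, against 17.6%.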

How the data were processed

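EU-labelled nascent RNA was captured (Click-iT Nascent RNA Capture Kit) and made into libraries (KAPA Hyper Prep Kit), per the labels' protocols. The submitters' processing notes list RSEM 1.3.0, STAR 2.7.1a, Trim Galore 0.60 and mm10 without saying what each was used for. The authors deposited whole-number counts per gene symbol, 1 table per library, not normalized. Entries for unassigned reads were kept out of totals and tests; reads outside features held 90.2 to 94.0% of each table and ambiguous ones 0.129 to 0.262%.

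Levels are CPM over all features, as the mean and SD over 2 clones. For tests, both libraries of a clone at a condition were added up (24 sums). Tests used R 4.3.3 and edgeR 4.0.16 (TMM, filterByExpr with minimum count 10 and total 15, robust quasi-likelihood, Benjamini-Hochberg at 0.05). Genotypes were compared with 1 mean for each of the 12 groups (common biological coefficient of variation 0.127), and times and interactions with clone as a further term (0.111). No replicate pair agreed within sampling noise (chi-square divided by its degrees of freedom 1.08 to 26.8), so all libraries were kept. P-values of this fit measure the spread between clone sums, which may be technical. The difference between the 2 libraries of a clone is not estimated in it. The fits were tested on simulated data.

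Of the symbols, 53292 had a GENCODE M21 name. Up to 6 members per direction with the smallest adjusted p were to be named with full statistics in each comparison, Ccnb1, Plk1, Cdc20, Aurka, Mki67 and Kif23 by library, and up to 4 genes of each other list. The alternatives were DESeq2 1.42.0, its size factors, no filter, single libraries and a replicate block. Others left out a clone, or 1 of its replicate numbers at all conditions together. The last left out the MD 90 min libraries, or CT010467.2 with the mitochondrial features. The members, the other lists and the tests were chosen with earlier results of these data known.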

Additional observations from a re-analysis of the deposited data

Results flagged for a closer look

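In 2 groups, 1 library of the snoRNA feature Gm25152, which lies inside Ect2 on the other strand, was farther from the other 3 than Dixon's 95% limit for 4 samples allows. In MD at 45 min, clone MD30 replicate 1 stood at 4.41 CPM and the others at 6.686 to 6.828 CPM. In MD at 180 min, clone MD09 replicate 1 stood at 6.929 CPM and the others at 4.221 to 4.449 CPM. These were listed from 156 groups. Over the 480 groups of the 40 members, 21 (4.38%) passed the limit, where chance gives about 1 in 20.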

How the results depend on the processing

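Of 226 called pairs of gene and comparison, 70 kept the call in all of up to 19 alternatives, 156 lost it in at least 1, and none changed sign. Of 529 recomputed counts of calls, 422 were within 1.5 times the reported count. DESeq2 called 1 member at 45 min between genotypes (5 with single libraries) and 0 at 240 min (2 without the MD 90 min libraries). In R42A it called 7 for 180 against 90 min, 5 for 240 min against asynchronous cells and 3 own-strand features at 0 min, and 1 for 240 against 180 min, as did its size factors in edgeR and no filter. In MD it called 0 for 240 against 180 min, 4 for 240 min against asynchronous cells and 2 own-strand features at 0 min, where no filter and leaving out the MD 90 min libraries gave 3 each. For these the cause was not tested.

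Either 1 clone or 1 of its replicate numbers was left out, the latter at all conditions together, and no library was left out singly. Without a clone, its genotype rested on the other clone alone. These fits gave 0 to 3, 0 to 2, 1 to 5, 6 to 13, 2 to 3 and 0 to 1 genotype calls from asynchronous cells to 240 min. The R42A steps, in time order with 240 min against asynchronous cells last, gave 12 to 22, 5 to 12, 9 to 18, 4 to 13, 0 to 2 and 3 to 12, and the MD steps 7 to 18, 5 to 14, 5 to 10, 6 to 13, 0 to 1 and 3 to 9, with 8 to 19 for 180 against 45 min. Interactions stayed at 0. Own-strand features gave 3 to 6, 3 to 3 and 3 to 6 calls in R42A and 1 to 5, 1 to 3 and 5 to 6 in MD.

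Replicate numbers were not taken to pair libraries, as 18 of 276 correlations of replicate differences were over 0.1 (-0.133 to 0.764, median 0.001). The highest was between the MD clones at 90 min, and the highest outside these libraries was 0.287. With a replicate block the counts were 3, 2, 4, 10, 6 and 1 between genotypes and 23 for R42A at 0 min, none moved by over 1.5 times. DESeq2's size factors in edgeR moved the share of higher calls over all features at 45 min between genotypes from 58.3 to 49.3%, at 90 min from 41.5 to 51.3%, in MD for 45 against 0 min from 57.5 to 47.0% and for 90 against 45 min from 44.4 to 54.1%, and the median fold change at 90 min from -0.13 to -0.001. At 0 min against asynchronous cells they moved the median of all features from -0.072 to 0.063 in R42A and from -0.088 to 0.041 in MD. With 28 members under 10 counts in some library and 2 clones a genotype, small and moderate changes could be missed.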
